A study of Mus musculus with 16 samples.

Results

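The genes described here encode the protein coat of the hepatic lipid droplet and the enzymes that empty it. They are the perilipins Plin2, Plin3, Plin4 and Plin5, the CIDE genes Cidea, Cideb and Cidec, the lipases Pnpla2 and Mgll, and the lipase inhibitor G0s2. Members were taken by exact gene symbol, from a list of names drawn up with earlier results of these data known. All 10 were found among the 25803 genes of the joined count tables, and all 10 passed the low-count filter that left 14488 genes for testing. The measurements are bulk poly-A RNA sequencing of whole liver, and all mice were males that had eaten a high-fat diet for 12 weeks. Livers of controls and of mice with a hepatic knockout of Cpt1a (LKO) were taken in the fasted state (16 h without food) or in the refed state (the same fast, then 6 h of feeding). This gives 4 groups of 4 libraries. Cpt1a encodes the outer mitochondrial membrane enzyme that commits long-chain fatty acids to oxidation. The promoter that drove the deletion, the alleles of the controls, the strain and the age of the mice are not given in the sources used here. Nor do they say whether a library is 1 animal, so p-values measure the spread between these libraries.

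A lipid droplet is a core of triglyceride and cholesteryl ester under a single layer of phospholipid, and its surface proteins decide how fast the core is hydrolysed. Perilipins occupy that surface and restrict lipases, and in hepatocytes the perilipin 2 protein is the usual coat and is degraded when no droplet is there to hold it. CIDE proteins gather where droplets touch and pass lipid from the smaller to the larger one. Adipose triglyceride lipase (ATGL, the product of Pnpla2) takes the first fatty acid from triglyceride, monoacylglycerol lipase (Mgll) takes the last, and the small protein G0S2 binds ATGL and inhibits it. Several of these genes are textbook targets of the nuclear receptors PPARA and PPARG, which are activated by fatty acids.

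Libraries held 14721601 to 24618230 counts. Cpt1a itself was examined first. Its mean was 101 ± 17.3 CPM (the usual scale of counts relative to library size, here the total times its TMM scaling factor) in fasted LKO against 487 ± 83.2 CPM in fasted control, and 54.2 ± 16.6 CPM in refed LKO against 457 ± 137 CPM in refed control (SD, n = 4). Neither pair of groups overlapped, and the exact two-sided permutation test gave p = 0.0286 in each state, the smallest value that 4 against 4 libraries allow. The liver label was checked against hepatocyte markers, whose summed level of 65598 to 95217 CPM was the highest of the marker lists. The 11 white adipocyte markers, several of which liver also expresses, summed to 3253 to 8155 CPM, and 4 of them (Adipoq, Lep, Plin1 and Retn) stayed under 1 CPM in all 16 libraries. Of the 7 that could be tested, 3 fell in fasted LKO (Cfd, Car3 and Adrb3) and 1 rose (Lpl), where 6.48% and 5.75% of all genes did. Libraries are called S40 to S55 after the columns of the deposited tables: refed LKO is S52 to S55, refed control S48 to S51, fasted LKO S44 to S47 and fasted control S40 to S43.

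In the coordinates of the deposited tables, for which the submitters' processing notes name mm39, 3 of the 4 perilipins lie on the minus strand of chromosome 17. Plin4 spans 56407591 to 56416803, Plin5 spans 56418601 to 56424596 and Plin3 spans 56584476 to 56599873. The gap between Plin4 and Plin5 is 1798 bases, and that between Plin5 and Plin3 is 159880 bases. Plin2 stands alone on chromosome 4 (86566623 to 86588297, minus strand). Cidec (113401595 to 113412721, minus strand) and Mgll (88701394 to 88805342, plus strand) share chromosome 6. Pnpla2 is on the plus strand of chromosome 7 (141035111 to 141040656), G0s2 on the minus strand of chromosome 1 (192954469 to 192955525), and Cideb on the minus strand of chromosome 14 (55991507 to 55995915). Some members overlap a gene on the opposite strand, and whether the authors counted by strand is not given in the sources used here. These are Cideb with Nop9 (mean 23.5 CPM, as high as Cideb itself), Plin4 with Hdgfl2 (44.1 CPM), G0s2 with Lamb3 (62 CPM), Mgll with Gm26588 (7.92 CPM) and Cidea with B430212C06Rik (0.394 CPM), beside partners at under 1 CPM of Cideb and Mgll. Values of those members, and of Cideb above all, can hold reads of the partner.

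The sequences before the transcription starts are shown for the 4 members that rose in fasted LKO, with Plin4 as the close neighbour of Plin5 that did not. Each is the 250 bases upstream of the start, 5′ to 3′ in the sense of the gene, from RefSeq in build GRCm38.p6, which is not the build of the deposited coordinates. Where a gene has 2 listed starts, the farther upstream is used. The windows are chr4:86670060-86670309 for Plin2, chr17:56117549-56117798 for Plin5, chr6:113435761-113436010 for Cidec and chr17:56109783-56110032 for Plin4, all on the minus strand, and chr6:88724162-88724411 for Mgll on the plus strand. Capitals mark matches, on either strand, to the motifs AGGTCA (the single element of nuclear receptors), GTAAACA (the FOXO element), CACGTG (an E-box), TATAAA (the TATA box), CCAAT (the box of that name) and GGGCGG (the GC box).
Plin2: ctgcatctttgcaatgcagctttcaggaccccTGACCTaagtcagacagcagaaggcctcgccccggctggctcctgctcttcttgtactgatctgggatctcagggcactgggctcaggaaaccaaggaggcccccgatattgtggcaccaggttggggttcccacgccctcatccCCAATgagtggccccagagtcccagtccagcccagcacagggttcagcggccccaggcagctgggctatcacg
Plin5: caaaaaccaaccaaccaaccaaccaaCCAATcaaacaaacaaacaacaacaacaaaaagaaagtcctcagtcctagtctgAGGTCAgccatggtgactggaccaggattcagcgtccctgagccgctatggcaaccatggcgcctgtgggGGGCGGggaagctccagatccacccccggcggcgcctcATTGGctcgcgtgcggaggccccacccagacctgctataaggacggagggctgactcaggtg
Cidec: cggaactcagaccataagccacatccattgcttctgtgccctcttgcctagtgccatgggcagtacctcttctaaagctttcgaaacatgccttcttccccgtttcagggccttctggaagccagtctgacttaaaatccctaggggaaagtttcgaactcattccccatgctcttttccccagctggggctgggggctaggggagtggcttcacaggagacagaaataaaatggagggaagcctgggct
Mgll: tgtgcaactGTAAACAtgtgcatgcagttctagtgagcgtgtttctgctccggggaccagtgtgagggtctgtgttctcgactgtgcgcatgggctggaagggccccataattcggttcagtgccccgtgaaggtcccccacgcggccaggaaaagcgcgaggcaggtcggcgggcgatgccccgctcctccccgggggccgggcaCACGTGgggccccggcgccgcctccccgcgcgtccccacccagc
Plin4: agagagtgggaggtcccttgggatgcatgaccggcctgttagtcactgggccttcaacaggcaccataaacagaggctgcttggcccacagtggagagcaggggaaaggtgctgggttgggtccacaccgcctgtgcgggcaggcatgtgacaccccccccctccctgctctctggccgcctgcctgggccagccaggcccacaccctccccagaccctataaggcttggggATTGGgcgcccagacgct
The single nuclear receptor element stands 218 to 213 bases before the start in Plin2, where it reads on the other strand, and 170 to 165 bases before it in Plin5. It occurs in 14.0% of the 32536 windows of the RefSeq table. The direct repeat to which PPARA and PPARG bind with their partner, searched as AGGNCANAGGNCA on both strands, was in 0 of the 12 windows listed for 9 members and in 0.341% of all windows. Upstream of Mgll, the FOXO letters (3.17% of windows) lie 241 to 235 bases before the start and the E-box (6.04% of windows) 44 to 39 bases before it. Cidec holds none of the 7 motifs in either of its windows, and Plin4 holds CCAAT alone (33.8% of windows). A match is a description of letters, not a binding site.

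Levels between genes were compared per length, as CPM per kb of deposited gene length. In fasted control G0s2 (326 ± 119 CPM per kb) and Plin2 (278 ± 22.0) led, and their ranges overlapped. Mgll followed at 80.5 ± 13.8, clear of its neighbours on both sides, and then Pnpla2 (53.5 ± 7.84), Plin5 (39.7 ± 9.49), Cidec (31.7 ± 10.1) and Cideb (18.6 ± 2.59), each overlapping the next. Plin3 (15.0 ± 0.92), Plin4 (11.4 ± 0.652) and Cidea (10.1 ± 8.33) came last (SD, n = 4 for each). Among 12591 protein-coding genes tested, these levels placed G0s2 at rank 164, Plin2 at 199 and Cidea at 3153. The order was different in fasted LKO. Plin2 stood first at 724 ± 177 CPM per kb (rank 65) with G0s2 second at 565 ± 57.0 (rank 95), and Cidec, sixth in fasted control, took the third place at 145 ± 54.3 (rank 330), overlapping Mgll at 132 ± 30.3. After refeeding, G0s2 and Plin2 again held the first places in both genotypes with overlapping ranges. Plin4 ended at 1.93 ± 0.538 CPM per kb in refed LKO (rank 7345), level with Cidea at 1.81 ± 1.26.

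In the fasted state, loss of Cpt1a was accompanied by more message for the main droplet coat, for one fusion protein and for the last lipase of the chain. Plin2, Plin5, Cidec and Mgll rose, by 1.64-fold to 4.58-fold, and no member fell. These are 4 of 10 members called higher, where 5.75% of all tested genes were, and 0 of 10 called lower, where 6.48% were (edgeR quasi-likelihood test, adjusted p under 0.05). The median log2 fold change of the 10 was 0.63, against 0.02 over all genes. For 4 members (Plin2, Cidec, G0s2 and Mgll) all knockout libraries stood above all controls, and 16.9% of all genes had groups that did not overlap in either direction. In whole liver, fewer cells of a type and less RNA per cell cannot be told apart. Hepatocyte markers summed to 65598 to 75104 CPM in fasted LKO and 79408 to 86706 in fasted control. Most of that sum was Alb, with means of 39508 and 48203 CPM and no call. The 10 markers did not move together, as 3 were called lower (Ttr, Fgb and Ahsg) and 1 higher (Tdo2). Cholangiocyte markers summed to 45.9 CPM in S44 against at most 10.9 in the other fasted libraries. The part of these shifts in the results was not tested.

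Plin2, the constitutive coat of the hepatocyte droplet, had 958, 1088, 946 and 911 CPM in fasted control and 3250, 1816, 2296 and 2812 CPM in fasted LKO. The lowest knockout library stood well above the highest control library. The log2 fold change was 1.38 (SE 0.25, 2.61-fold, edgeR adjusted p = 0.00224). Plin5, the coat that tethers droplets to mitochondria in oxidative tissues, had 59.5, 101, 97.3 and 73.4 CPM in control and 191, 100, 116 and 159 CPM in LKO. Library S45 fell inside the control range, and the other 3 knockout libraries lay above it. Its rise of 0.77 (SE 0.23, 1.71-fold, edgeR adjusted p = 0.0369) did not pass when S40, S42, S43, S44 or S47 was left out (adjusted p 0.0535 to 0.134) or when only the fasted groups were fitted (0.0584). Plin3, a coat protein of nascent droplets that is also found in the cytosol, had 54.4 to 61.9 CPM in control and 58.8 to 71.5 CPM in LKO, overlapping groups with a log2 fold change of 0.18 (SE 0.15, edgeR adjusted p = 0.506). Plin4, a coat with a long repeat region that is best known from adipocytes and muscle, had 67.9, 77.4, 73.4 and 70.0 CPM in control and 37.5, 57.4, 18.8 and 85.8 CPM in LKO. Control libraries were within 10 CPM of each other, while the knockout libraries lay on both sides of them. The log2 fold change of −0.54 (SE 0.34) did not pass (edgeR adjusted p = 0.337).

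Cidec, also called FSP27, promotes the growth of large droplets and is scarce in lean liver. It had 81.7, 36.8, 63.3 and 53.7 CPM in fasted control and 353, 151, 354 and 221 CPM in fasted LKO. Every knockout library was above every control library, with S44 and S46 the highest. This was the largest change among the members in that comparison, at 2.20 (SE 0.50, 4.58-fold, edgeR adjusted p = 0.00984). Cideb, the hepatocyte member that also serves lipoprotein lipidation, had 24.1 to 32.1 CPM in control and 12.0 to 24.7 CPM in LKO, with a log2 fold change of −0.42 (SE 0.20, edgeR adjusted p = 0.196). The per-length ratio of Cidec to Cideb was 1.68 ± 0.357 in fasted control and 10.4 ± 1.88 in fasted LKO (SD, n = 4), without overlap. In refed control it was 1.26 ± 1.04 and in refed LKO 2.57 ± 0.641 (SD, n = 4), where the ranges of 0.268 to 2.73 and 2.01 to 3.48 overlapped. Cidea, typical of brown fat and of steatotic liver, ranged from 2.04 to 20.0 CPM in control and from 0.62 to 8.20 CPM in LKO, and its log2 fold change of −1.48 had an SE of 1.06 (edgeR adjusted p = 0.405).

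Among the lipolysis genes, Mgll had 359, 474, 464 and 337 CPM in fasted control and 735, 475, 837 and 639 CPM in fasted LKO. Its groups did not overlap, though S45 exceeded the highest control library by less than 2 CPM. The log2 fold change was 0.72 (SE 0.15, 1.64-fold, edgeR adjusted p = 0.00583). Pnpla2 had 190, 147, 172 and 138 CPM in control and 320, 157, 280 and 189 CPM in LKO. S44 and S46 were high and S45 and S47 within the control range. The log2 fold change of 0.55 (SE 0.20) missed the threshold (edgeR adjusted p = 0.0845), and it passed without S45 (0.70, adjusted p = 0.0218). That was the 1 pass in 15 fits with another setting or 1 library left out. The lowest value was 0.37 and the highest edgeR adjusted p 0.281. G0s2 had 213, 322, 187 and 413 CPM in control and 542, 448, 527 and 451 CPM in LKO. All 4 knockout libraries were above all controls, with a difference of 0.80 (SE 0.28, edgeR adjusted p = 0.0762) that passed with DESeq2 (0.0325) and without S43 (1.03, edgeR adjusted p = 0.0374). These were 2 of 15 such fits, and the edgeR adjusted p reached 0.207 in the others. In the authors' deposited table G0s2 has a log2 fold change of 0.79 with an adjusted p of 0.00655.

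**Figure D1:**
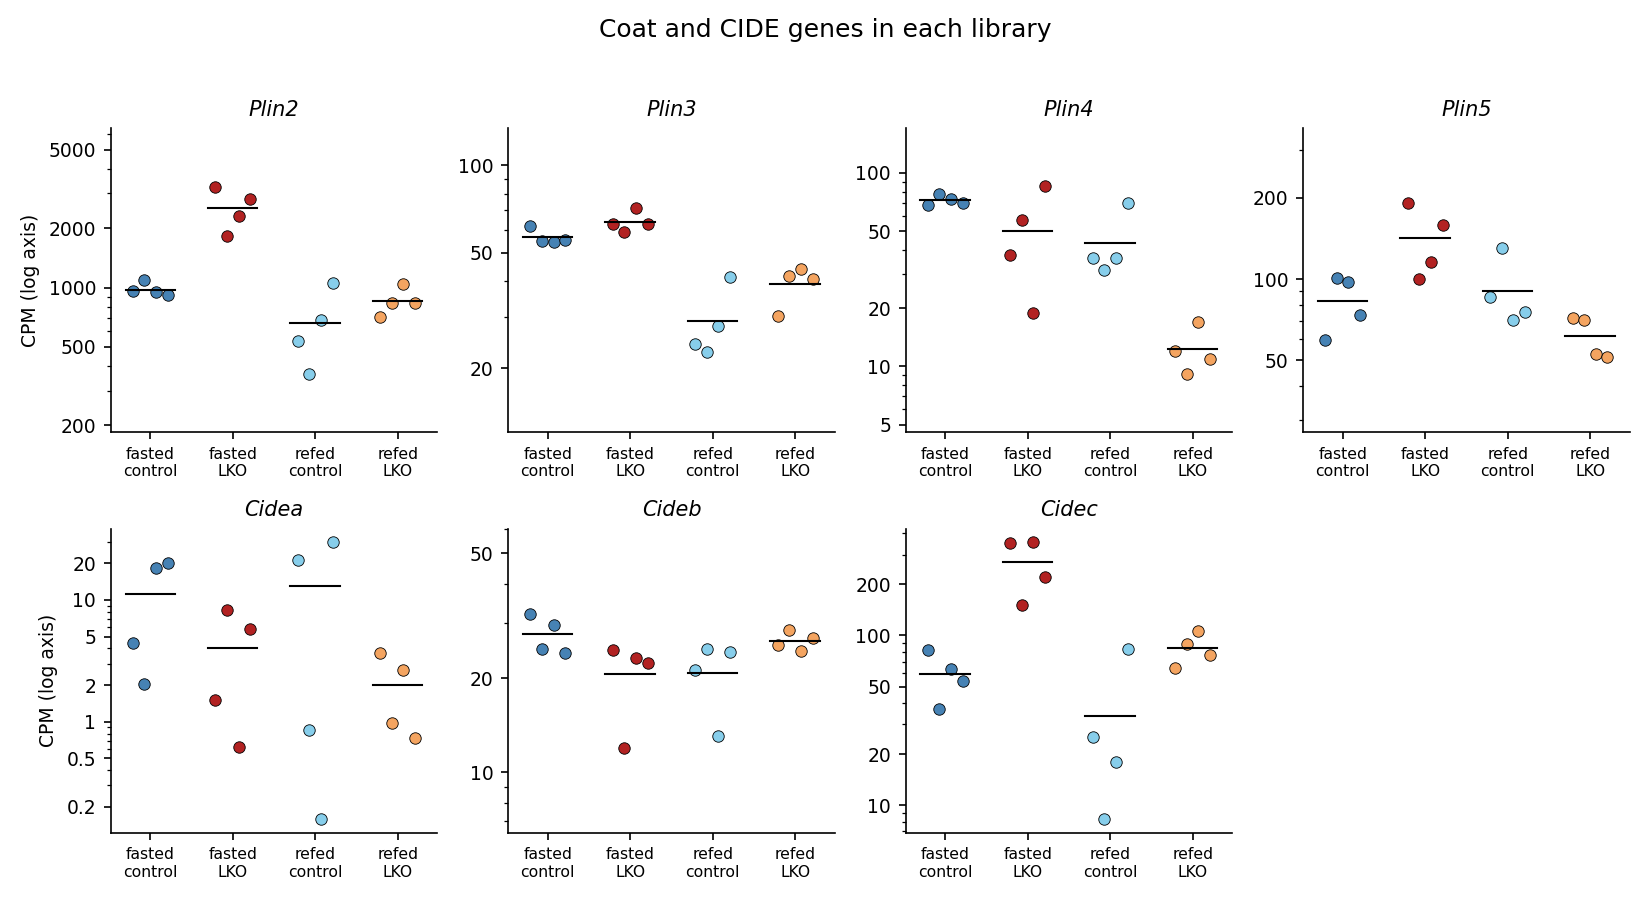
CPM of the coat and CIDE genes in each of the 16 libraries, on log axes that differ between panels. Points are libraries and bars are group means. Plin2 and Cidec in fasted LKO stand above fasted control in all 4 libraries, Plin4 is lowest in refed LKO (9.09 to 17.1 CPM), and 1 refed control library (S51) is the highest of its group for Plin2, Plin3, Plin4, Cidea and Cidec.

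After refeeding, the called difference between genotypes lay in another coat gene. Plin4 fell in LKO, 1 of 10 members called lower where 1.35% of all genes were, and 0 of 10 were called higher, where 2.28% were. The median log2 fold change of the members was 0.34, against −0.01 over all genes. Plin4 had 36.5, 31.4, 36.2 and 69.9 CPM in refed control and 12.0, 9.09, 17.1 and 10.9 CPM in refed LKO. No knockout library reached the lowest control library, and S51 alone set the upper end of the control group. The log2 fold change was −1.83 (SE 0.36, 3.55-fold lower, edgeR adjusted p = 0.0109), and it stayed called in all 8 fits that left out 1 refed library, at −1.51 to −2.02. Mgll was the other member without overlap between groups (437 to 527 CPM in control, 558 to 645 CPM in LKO), where 11.7% of all genes showed none. Its difference of 0.34 (SE 0.15) did not pass (edgeR adjusted p = 0.241), while the authors' deposited table gives 0.34 with an adjusted p of 0.0127.

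The refed differences of Cidec, Plin3 and Plin2 were larger when control library S51 was left out. With 1 library left out, those of Pnpla2 and Mgll reached at most 0.53 and 0.40, and neither passed. Cidec had 25.3, 8.29, 17.8 and 82.7 CPM in refed control and 64.3, 89.3, 106 and 76.4 CPM in refed LKO. S51 lay among the knockout libraries and the other 3 controls lay below all of them. With all libraries the log2 fold change was 1.34 (SE 0.49, edgeR adjusted p = 0.150), and without S51 it was 2.30 (adjusted p = 0.00538). With all libraries kept, limma-voom gave 1.87 (adjusted p = 0.0373). Plin3, at 24.2, 22.7, 28.1 and 41.3 CPM in control against 30.2, 41.5, 44 and 40.7 CPM in LKO, behaved likewise. Its difference was 0.43 (SE 0.16, edgeR adjusted p = 0.141), and 0.64 without S51 (adjusted p = 0.0101). Of 15 fits with another setting or 1 library left out, 2 passed for Cidec and 1 for Plin3. Plin2 had 537, 366, 688 and 1057 CPM in control and 705, 835, 1047 and 835 CPM in LKO. S51 exceeded every knockout library, and the difference of 0.37 (SE 0.24, edgeR adjusted p = 0.451) became 0.69 without it and still did not pass (adjusted p = 0.0798). In S51 the macrophage markers summed to 144 CPM and the endothelial markers to 110 CPM, the lowest of all 16 libraries, and in S49, lowest for Plin2, Plin3 and Cidec among refed controls, macrophage markers summed to 524 CPM, the highest. Their part in these values was not tested.

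The other 5 members showed no called refed difference. Plin5 had 70.6 to 130 CPM in refed control and 51.4 to 71.8 CPM in refed LKO, a log2 fold change of −0.56 (SE 0.23, edgeR adjusted p = 0.200). That sign is opposite to the fasted one. Pnpla2 had 57.3 to 90.5 CPM in control and 72.6 to 105 CPM in LKO (0.38, SE 0.20, edgeR adjusted p = 0.333), and Cideb 13.1 to 24.8 CPM in control and 24.5 to 28.5 CPM in LKO (0.34, SE 0.20, adjusted p = 0.396). G0s2 averaged 316 ± 88.1 CPM in control and 319 ± 112 CPM in LKO (SD, n = 4), where S55 at 153 CPM stood apart from 351 to 390 CPM in the others. Cidea, at 21.3, 0.85, 0.16 and 29.7 CPM in control and 3.68, 0.98, 2.66 and 0.74 CPM in LKO, spanned more than any other member, and its −2.66 (SE 1.13) did not pass (edgeR adjusted p = 0.214).

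**Figure D2:**
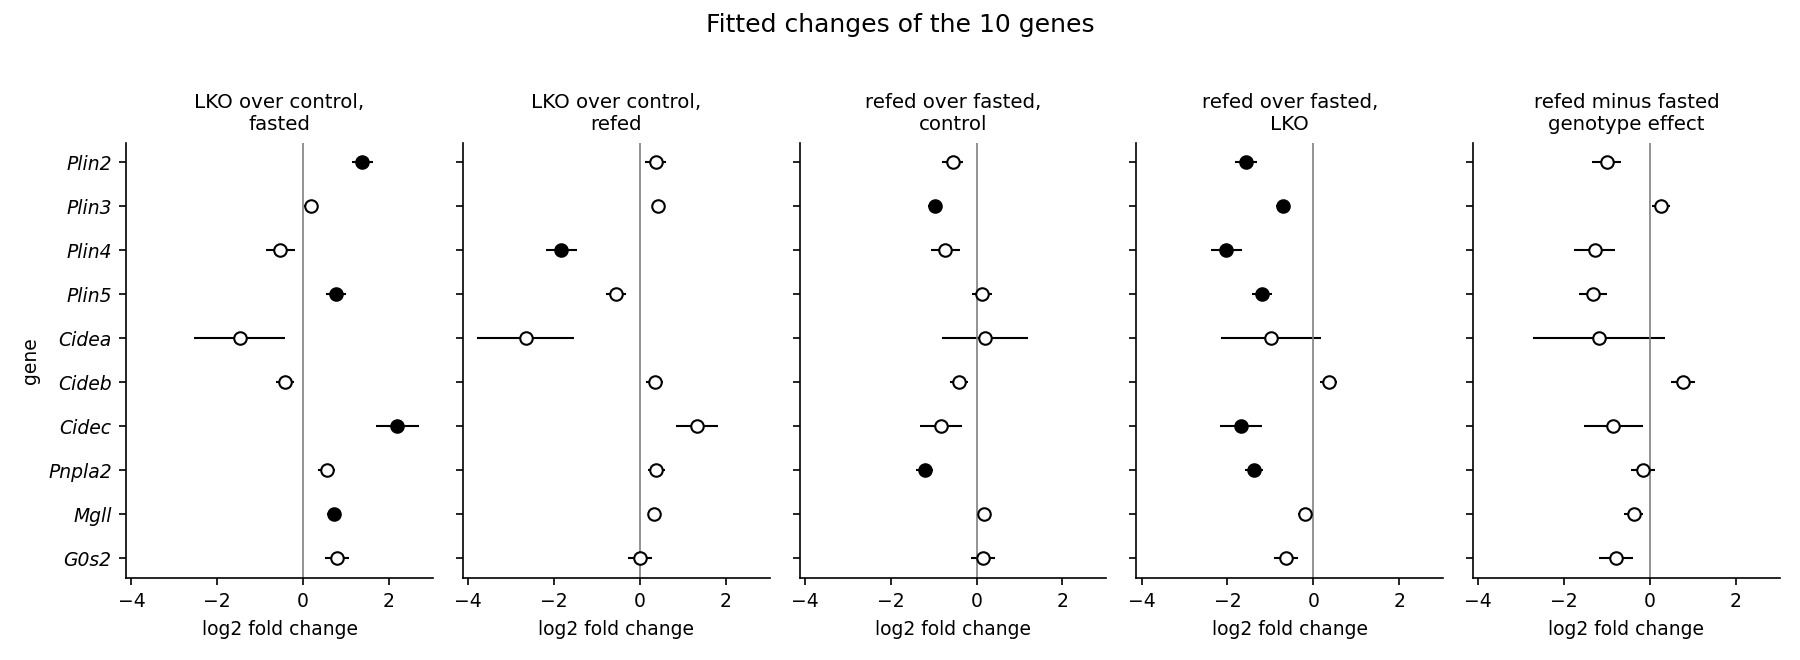
Fitted log2 fold changes (points) with their standard errors (bars) for the 10 genes in 5 comparisons, the last being the refed minus the fasted genotype effect. Filled points passed an edgeR adjusted p of 0.05: 4 in the fasted and 1 in the refed genotype comparison, 2 and 6 in the refeeding comparisons of control and LKO, and 0 in the last.

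After refeeding, message for the first lipase and for one coat was lower in both genotypes, and in LKO that for Plin2, Plin4, Plin5 and Cidec as well. In control, Plin3 and Pnpla2 fell, 2 of 10 members called lower where 7.65% of all genes were, and 0 of 10 called higher, where 7.79% were. The same 2 were the members whose groups did not overlap, as for 20.4% of all genes. In LKO, Plin2, Plin3, Plin4, Plin5, Cidec and Pnpla2 fell, 6 of 10 where 8.78% of all genes did, and 0 of 10 rose, where 9.28% did. Refed libraries lay wholly below fasted ones for 7 members, the 6 called and G0s2, where 20.6% of all genes had no overlap. Median log2 fold changes of the 10 were −0.49 in control and −1.09 in LKO, against 0.01 and −0.02 over all genes. The comparisons of the 2 genotypes share no library with each other, but each shares its groups with the genotype comparisons above.

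Pnpla2, the ATGL gene, went from 138 to 190 CPM in fasted control to 57.3 to 90.5 CPM in refed control, and from 157 to 320 CPM in fasted LKO to 72.6 to 105 CPM in refed LKO. Every refed library was below every fasted library of its genotype. The log2 fold changes were −1.21 (SE 0.20, edgeR adjusted p = 0.00148) and −1.38 (SE 0.20, adjusted p = 3.1e-04). Plin3 fell by 0.97 (SE 0.16, edgeR adjusted p = 0.00122) in control and by 0.71 (SE 0.15, adjusted p = 0.00439) in LKO, again without overlap. Mgll was not called in either genotype, at 0.18 (SE 0.15, edgeR adjusted p = 0.460) in control and −0.20 (SE 0.15, adjusted p = 0.386) in LKO. The per-length ratio of Mgll to Pnpla2 was 1.13 to 2.01 in the 8 fasted libraries and 3.45 to 4.62 in the 8 refed libraries, with no overlap.

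In LKO, Plin2 went from 1816 to 3250 CPM to 705 to 1047 CPM, a log2 fold change of −1.57 (SE 0.25, edgeR adjusted p = 5.1e-04). The refed knockout range overlapped that of fasted control (911 to 1088 CPM). Plin4 had the largest fall, −2.02 (SE 0.36, 4.07-fold lower, edgeR adjusted p = 0.00111), and Plin5 fell by 1.20 (SE 0.23, adjusted p = 0.00214). Cidec fell by 1.68 (SE 0.49, edgeR adjusted p = 0.0256). That call did not pass when S44, S46, S52, S53 or S55 was left out, at −1.52 to −1.71 with adjusted p of 0.0538 to 0.0761. In control, the corresponding values that did not pass were −0.56 for Plin2 (SE 0.24, edgeR adjusted p = 0.132), −0.73 for Plin4 (SE 0.34, 0.155), 0.13 for Plin5 (SE 0.23, 0.746) and −0.82 for Cidec (SE 0.49, 0.281). Leaving out S51 brought 3 of these past the threshold, with Plin2 at −0.88 (edgeR adjusted p = 0.0112), Plin4 at −1.05 (0.0433) and Cidec at −1.78 (0.00518), so that 5 members fell in control without it. Over all genes, the fit without S51 called 2483 in either direction, against 2238 with all libraries. Plin4 also passed with all libraries kept when only the control groups were fitted (−0.73, edgeR adjusted p = 0.0469). In the authors' deposited table Plin4 has −0.73 with an adjusted p of 0.00674 in control.

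**Figure D3:**
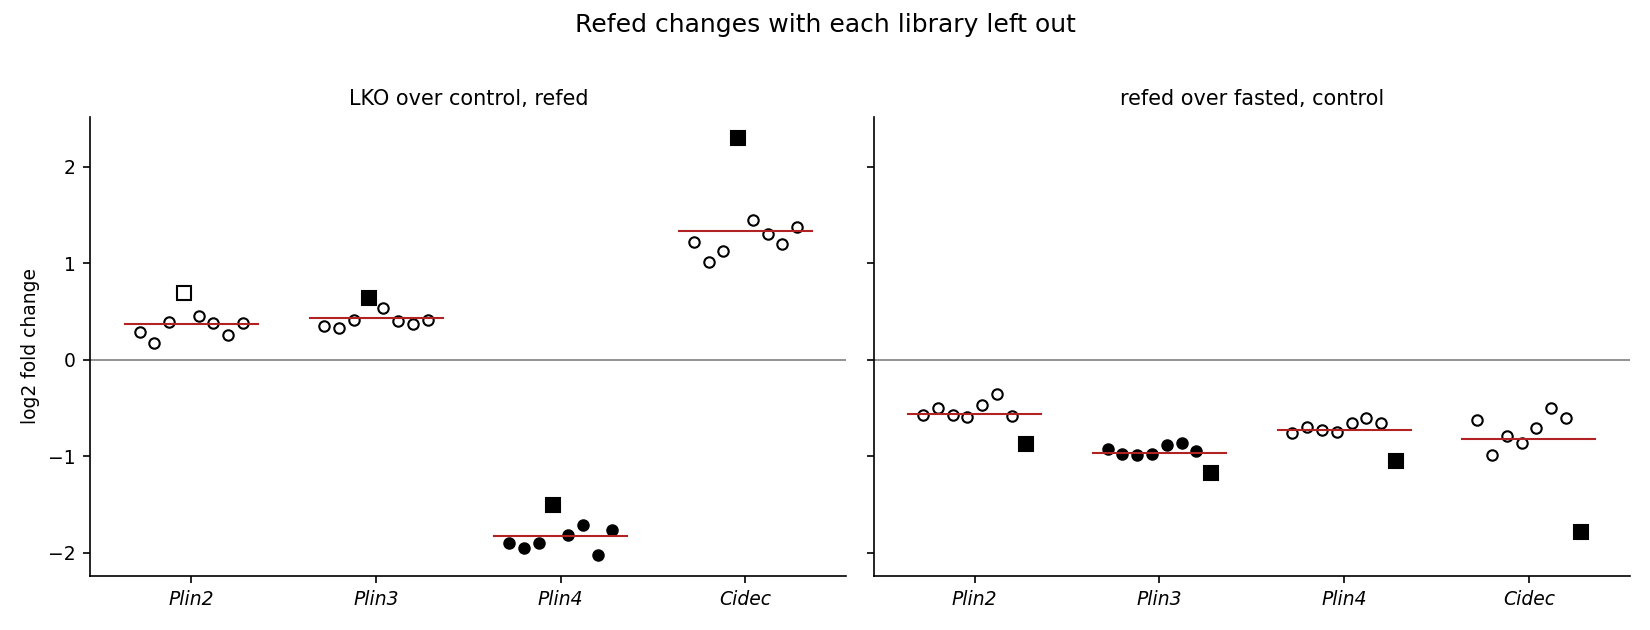
Log2 fold changes of Plin2, Plin3, Plin4 and Cidec when each of the 8 libraries in a comparison was left out, for LKO over control in the refed state (left) and refed over fasted in control (right). Squares mark the fit without S51, filled symbols an edgeR adjusted p under 0.05, and horizontal lines the value with all libraries. Cidec moves from 1.34 to 2.30 on the left and from −0.82 to −1.78 on the right.

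Whether the genotype effect itself differed between the feeding states was tested as an interaction. No member passed, 0 of 10 called higher where 0.311% of all genes were and 0 of 10 called lower where 0.228% were. By edgeR, 4 members had an unadjusted p under 0.05 (Plin2, Plin4, Plin5 and Cideb), a threshold for which no share of all genes is given here. DESeq2 called 1 member (Plin5) and limma-voom 0, where they called 469 and 80 of all genes. Plin5 came closest, with a refed minus fasted genotype effect of −1.33 (SE 0.33, edgeR adjusted p = 0.0667). It passed with DESeq2 (adjusted p = 0.00641), with genes limited to a mean of at least 5 CPM (edgeR, 0.0490) and without S45 (edgeR, 0.0417). These were 3 of 22 fits with another setting or 1 library left out, and the edgeR adjusted p reached 0.138 in the others. The values for Plin2 and Plin4 were −1.01 (SE 0.35, edgeR adjusted p = 0.156) and −1.29 (SE 0.49, 0.192). Plin2 passed in 1 of 22 such fits, without S49 (−1.21, edgeR adjusted p = 0.0469), with an adjusted p up to 0.266 in the others. Cideb was the only one of the 4 with a positive value, 0.77 (SE 0.29, edgeR adjusted p = 0.192). The interaction for Pnpla2 was −0.17 (SE 0.28, edgeR adjusted p = 0.810). The count of refeeding falls was larger in LKO than in control. In the edgeR fit of the 14488 genes this is not shown to be a difference between genotypes for any single member. With all 16 libraries, edgeR called Plin5 alone, and only when genes were limited to a mean of at least 5 CPM.

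Plin4 made up a smaller share of the perilipin message in LKO than in control libraries of both states, without overlap. Summed over Plin2 to Plin5, the per-length level of fasted livers was 344 ± 28.8 CPM per kb in control and 817 ± 197 in LKO, and that of refed livers 246 ± 79.8 and 285 ± 38.6 (SD, n = 4). Plin2 supplied 80.8 ± 1.77% of it in fasted control and 88.6 ± 0.776% in fasted LKO, with every knockout library above every control library. Plin4 supplied 3.31 ± 0.122% and 0.999 ± 0.595% in the same groups, and 2.75 ± 0.295% and 0.673 ± 0.136% in refed control and refed LKO. The fasted level of Plin4 itself was not called (log2 fold change −0.54, edgeR adjusted p = 0.337). Plin3 supplied 4.38 ± 0.513% in fasted control and 2.16 ± 0.525% in fasted LKO, also without overlap, and its refed ranges overlapped. The ratio of Plin2 to Plin4, per length, was 23.3 to 25.5 in fasted control and 21.0 to 34.3 in refed control. It was 157, 57.3, 220 and 59.3 in fasted LKO and 106, 166, 111 and 139 in refed LKO. No knockout library overlapped a control library of either state, and S51, high for both genes, had a ratio of 27.4, within the control range. Plin5 took 10.1% to 35.2% of the sum in refed control, highest in S49, and 7.47% to 14.0% in refed LKO.

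**Figure D4:**
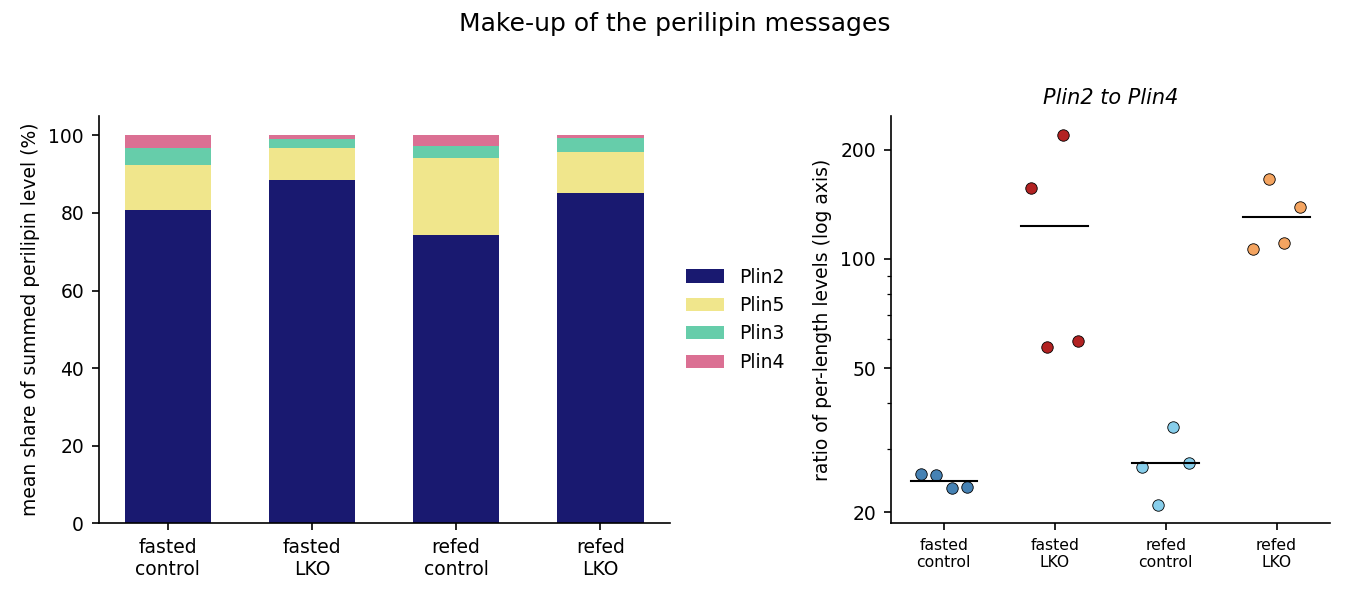
Left, mean share of each perilipin in their summed per-length level, by group. Right, per-length ratio of Plin2 to Plin4 in each library on a log axis, with points for libraries and bars for means. All 8 control points fall from 21.0 to 34.3, and all 8 LKO points from 57.3 to 220.

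The inhibitor and its lipase were also set side by side. Per length, G0s2 stood above Pnpla2 in all 16 libraries, with a ratio of 3.90, 7.59, 3.76 and 10.4 in fasted control and 5.88, 9.91, 6.54 and 8.26 in fasted LKO. In refed control the ratio was 24.3, 13.7, 11.8 and 14.7, above all fasted libraries. In refed LKO it was 16.7, 12.9, 13.6 and 5.96, where S55, the library of low G0s2, lay inside the fasted range. G0s2 itself did not pass with refeeding, at 0.16 (SE 0.28, edgeR adjusted p = 0.749) in control and −0.63 (SE 0.28, 0.139) in LKO, while Pnpla2 fell in both genotypes. These are ratios of message, and no protein or lipase activity was measured.

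**Figure D5:**
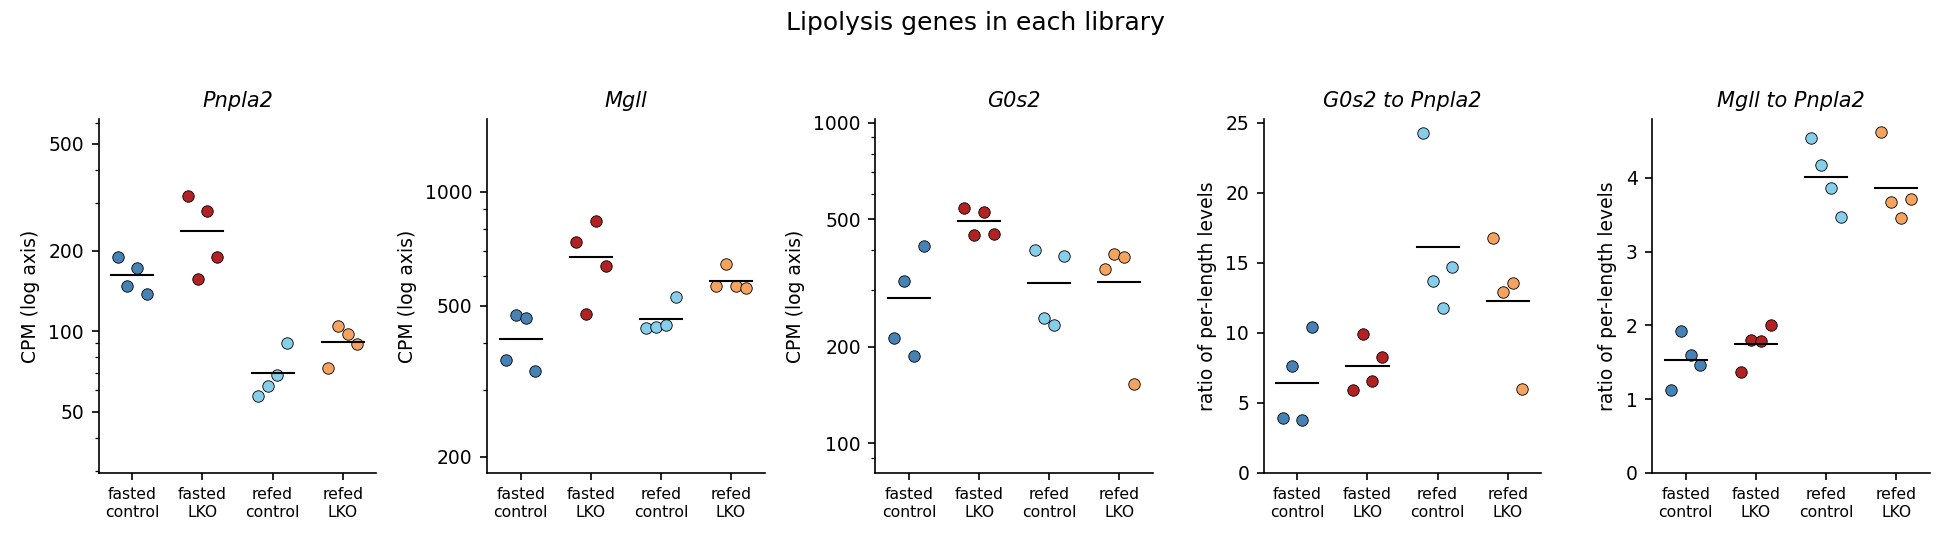
CPM of Pnpla2, Mgll and G0s2 in each library (log axes) and the per-length ratios of G0s2 to Pnpla2 and of Mgll to Pnpla2 (linear axes from 0). Points are libraries and bars are group means. Mgll to Pnpla2 separates fasted (1.13 to 2.01) from refed libraries (3.45 to 4.62), while Mgll itself overlaps between the states.

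Within groups, members differed in how tightly they were held. Plin3 and Plin4 had coefficients of variation of 6.14% and 5.74% in fasted control, and Plin4 had 57.5% in fasted LKO. Cidec reached 99.9% and Cidea 114% in refed control. After each group's mean was taken off, Cidec followed Plin3 (Pearson r 0.818, Spearman rho 0.697), Plin2 (0.791 and 0.450) and Pnpla2 (0.698 and 0.794) over the 16 libraries, while Cidec with Plin4 gave 0.164 and −0.0176. Cidea followed the adipocyte gene Cfd, adipsin (0.752 and 0.776), and so did Plin4 (0.733 and 0.650). These points share libraries, depth and scaling, and the values are descriptive. Cfd itself fell in fasted LKO, by 3.45 on the log2 scale (SE 0.88, edgeR adjusted p = 0.0182), from 9.75 to 58.1 CPM in control to 0.34 to 9.51 CPM in LKO. The other white adipocyte markers did not move together in the same comparison. Car3 fell by 2.16 (edgeR adjusted p = 0.00859), from a mean of 2551 to 570 CPM, and Adrb3 by 1.16 (0.0131), from 8.82 to 3.94 CPM. Lpl rose by 0.66 (edgeR adjusted p = 0.0475), and Fabp4 (1.05), Pck1 (0.78) and Lipe (0.04) were not called. Adipoq, Lep, Plin1 and Retn were under 1 CPM in all libraries. Of these markers, only Cfd and Car3 were set against the members. Car3 with Plin4 gave 0.722 and 0.462 within groups. The part of these markers in the values of Cidea and Plin4 was not tested.

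By a rule that took the 3 other genes with the highest Pearson r over 16 libraries among 8883 protein-coding candidates, Plin2 was most like Tgoln1 (0.962), Tdrp (0.961) and Crot (0.958). Pnpla2 was most like Mlycd, which encodes malonyl-CoA decarboxylase (0.972), Fcgrt (0.961) and Ypel3 (0.955). Cidec was closest to Pex19 (0.947), Arsg (0.947) and Litaf (0.938), and Plin4 to Ndst1 (0.912), Tenm3 (0.905) and Dazap2 (0.901). Plin5, Cideb, Cidea and G0s2 had no gene above 0.895. These values include the differences between groups.

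Other genes of the droplet and of lipid hydrolysis, listed by function, moved in both directions. Of 17 other droplet genes tested, 3 rose and 3 fell in fasted LKO, where 5.75% and 6.48% of all genes did. Their median log2 fold change was 0.06 (0.02 over all genes). Hsd17b11, a droplet-anchored dehydrogenase, rose by 1.23 (SE 0.21, edgeR adjusted p = 0.00154), Hsd17b13, its hepatocyte relative, by 0.58 (SE 0.14, 0.0139), and Hilpda, a second protein inhibitor of ATGL, by 1.02 (SE 0.32, 0.0482) from a mean of 3.01 CPM. Those that fell were Fitm1, which helps bud droplets (−0.95, SE 0.19, edgeR adjusted p = 0.00403), Dgat2, which makes triglyceride (−0.76, SE 0.11, 6.6e-04), and Mettl7a1 (−0.50, SE 0.14, 0.0330). In the refed state 2 rose (Hsd17b11 and Hsd17b13) and 1 fell (Gpat4), where 2.28% and 1.35% of all genes did. Of 14 other hydrolysis genes, 3 rose in fasted LKO (Lipa, the lysosomal acid lipase, by 0.96, Ddhd2 by 0.99 and Lpl by 0.66, edgeR adjusted p of 2.4e-04, 8.8e-04 and 0.0475). In the same comparison 2 fell (Ces2a and Lipc), and in the refed state 1 fell (Lipc), beside the same shares of all genes. Both Lipa and Ddhd2 also passed the interaction test, at −0.94 (SE 0.17, edgeR adjusted p = 0.0261) and −1.04 (SE 0.22, 0.0426), where 0.228% of all genes were called lower. Abhd5, the coactivator of ATGL, and Lipe, the hormone-sensitive lipase, were not called for genotype, at 0.30 (SE 0.10, edgeR adjusted p = 0.0724) and 0.04 (SE 0.19, 0.917) in the fasted state.

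The nuclear receptor genes and targets were given by the same lists. Of 22 PPARA targets outside the members, 18 rose in fasted LKO and 6 in refed LKO, with 0 falling in either, and medians of 0.75 and 0.53, where 5.75% and 2.28% of all genes rose. With refeeding, 0 of the 22 were called in control, where 7.65% of all genes fell, and 12 fell in LKO, where 8.78% did. In control, DESeq2 called 3 of the 22 and limma-voom 1, where they called 2590 and 2346 of all genes. By edgeR, 6 had an unadjusted p under 0.05, a threshold for which no share of all genes is given here. The interaction was called for 0 of the 22 by edgeR, 3 by DESeq2 and 0 by limma-voom, where they called 78, 469 and 80 of all genes. An unadjusted edgeR p under 0.05 was found for 7, again without a share of all genes. By edgeR the refeeding effect is therefore not shown to differ between genotypes for any of them. DESeq2 called 11 of the 22 for genotype in the refed state, and 901 of all genes. Ppara itself was at 0.45 in the fasted comparison (SE 0.20, edgeR adjusted p = 0.161). Of 8 PPARG and steatosis-linked genes, Apoa4 and Fabp2 rose in both states, where 5.75% (fasted) and 2.28% (refed) of all genes did. Cfd fell in the fasted state, where 6.48% of all genes did. Pparg was at −0.13 (SE 0.25, edgeR adjusted p = 0.783) and the fatty acid carrier Cd36 at 0.14 (SE 0.39, 0.859) in fasted LKO. Fabp4 (1.05), Mogat1 (−0.75) and Scd1 (−1.54) were not called there either. These are levels of message, and receptor activity was not measured. The part of either receptor in the changes of the members was not tested.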

How the data were processed

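Messenger RNA was selected by its poly-A tail and primed with random hexamers, with dUTP in the synthesis, per the labels' protocols. The submitters' processing notes name HISAT2 2.0.5 and mm39, and the counting tool, its annotation and its use of strand are not given in the sources used here. The authors deposited 4 tables of raw counts per gene, 1 for each pair of groups. They were joined on gene identifier into 25803 genes, with 0 counts differing between tables. A gene absent from both tables of a library was set to 0 there, which touched 3148 genes and no member. The authors' gene lengths in bases came from the same tables, as did the authors' deposited log2 fold changes and adjusted p-values, whose tool is not given in the sources used here and whose sign was turned so that LKO, or the refed state, comes first. Another 64 columns with values of single libraries were left out.

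Counts were fitted in R 4.3.3 with edgeR 4.0.16 (filterByExpr, 14488 genes; TMM factors 0.941 to 1.07; glmQLFit with the 4 groups as 1 factor over 16 libraries; biological coefficient of variation 0.185). Quasi-likelihood tests were made for 5 contrasts, with Benjamini-Hochberg adjustment over all genes tested and a threshold of 0.05. SE is the log2 fold change divided by the square root of F. CPM used TMM-scaled totals. The script was tested on simulated data. Members and lists were chosen with earlier results of these data known. Any gene of the members, the lists or the nearest 3 by Pearson r (mean of at least 5 CPM) could be named. Alternatives were DESeq2 1.42.0, limma-voom (limma 3.58.1), RLE and upper quartile scaling, no low-count filter, a mean of at least 5 CPM, only the 2 groups compared, and each library left out.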

Additional observations from a re-analysis of the deposited data

Results flagged for a closer look

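In 5 of the 40 groups of 4 libraries formed by the 10 members, 1 library lay apart from the other 3 by Dixon's criterion at the 95% level. Chance gives about 1 in 20. In refed control S51 was high for Plin4, at 69.9 CPM against 31.4 to 36.5 in the others, and for Mgll, at 527 CPM against 437 to 446. Leaving S51 out kept the refed call of Plin4 (−1.51) and added calls for Plin3 and Cidec. In refed LKO, S53 was high for Mgll, at 645 CPM against 558 to 565 in the others, and S55 was low for G0s2, at 153 CPM against 351 to 390. In fasted control S40 was high for Plin3, at 61.9 CPM against 54.4 to 55.4.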

How the results depend on the processing

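Among the 10 members, the fasted rises of Plin2, Cidec and Mgll, the refed fall of Plin4, the refeeding falls of Pnpla2 and Plin3 in both genotypes and those of Plin2, Plin4 and Plin5 in LKO passed in every fit made of their comparison. RLE and upper quartile scaling changed no sign of a member. All genes called for genotype in the refed state were 901 with DESeq2 and 526 with edgeR, and all genes called for the genotype by feeding interaction were 469 and 78. Limma-voom called 2 members in the refed state (Plin4 and Cidec). Limiting genes to a mean of at least 5 CPM gave 197 interaction calls and 1 member, Plin5, which was also the 1 member called by DESeq2. Limma-voom turned the sign of 3 values that never passed: G0s2 in the refed state (−0.035), and Cidea in control refeeding (−1.74) and in the interaction (1.10). The cause was not tested.

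With 1 library left out, the counts of members called ran from 3 to 5 (fasted), 1 to 3 (refed), 2 to 5 (refeeding in control), 5 to 6 (refeeding in LKO) and 0 to 1 (interaction), the highest refed and control refeeding counts being those without S51. Over all genes they ran from 1048 (without S44) to 1985 (without S45), 197 (without S48) to 517, 1220 (without S40) to 2483 (without S51), 1795 to 2448 and 8 (without S48) to 282 (without S49). Refed calls were also fewer without S50, S53, S54 or S55 (225 to 300), control refeeding calls without S50 (1365), and interaction calls moved by over 1.5 times without each library other than S47 and S51. Values that changed sign were G0s2 in the refed state (−0.11 to 0.24), Plin5 (−0.10 to 0.24) and Cidea (−0.64 to 0.63) in control refeeding, and Pnpla2 (−0.31 to 0.014) and Cidec (−1.18 to 0.10, the last without S51) in the interaction.

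No paired analysis was possible because the count columns carry no replicate number. With 4 libraries a group, differences of Cidea were not detectable at its spread between libraries (SE 1.06 in the fasted comparison). The labels name no batch, so within-batch values could not be given.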
